A study of Homo sapiens with 1 sample.

Results

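The miRNA array of DLD-1 control cells carried 10 human entries that are listed as miRNAs but may be pieces of other small or ribosomal RNAs. They were hsa-miR-1246, hsa-miR-1290, hsa-miR-1260a, hsa-miR-1260b, hsa-miR-1291, hsa-miR-1248, hsa-miR-3648, hsa-miR-3687, hsa-miR-3651 and hsa-miR-663a, taken by name from the 2549 human entries of the array. The rule used no signal, but the names were proposed with earlier results of these data known. DLD-1 is a human colorectal carcinoma line, grown here in medium with fetal bovine serum and transfected with the empty negative control plasmid pLVX-NC. The labels do not say whether the transfected cells were 1 clone or a pool. The array of cells with the circLONP2 plasmid was not analysed here. All values therefore come from 1 array of 1 condition, without a replicate, and the SDs given are between spots of the same probe on that array.

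A miRNA is cut from a hairpin by Drosha and Dicer and guides Argonaute to transcripts that pair with its seed. Small nucleolar RNAs (snoRNAs) of the H/ACA class guide pseudouridylation of other RNAs and end in an ACA box. Ribosomal RNA is cut from a long precursor whose external transcribed spacer lies before the 18S RNA, and a mature transfer RNA (tRNA) carries a CCA tail. Spliceosomal small nuclear RNAs such as U2 take part in intron removal. Pieces of all of these abundant RNAs can reach the length of a miRNA, and an array probe does not tell a piece of a longer RNA from a Drosha and Dicer product of the same letters. As background, miR-1246 has been described as a match to U2, and miR-1260a and miR-1260b as matches to the end of a leucine tRNA. miR-3648 and miR-3687 are assigned to the spacer of the ribosomal precursor. miR-1248, miR-1291 and miR-3651 are assigned to H/ACA snoRNAs. No such RNA is named here for miR-1290 and miR-663a.

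The mature sequences give the bases of each entry, while the sequences of the probes were not examined. RefSeq sequences matched 9 of the 10 entries by name, and miR-3687 was not among them. Each is printed 5′ to 3′ with the seed, bases 2 to 8, in capitals.
miR-1260a: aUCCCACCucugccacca
miR-1260b: aUCCCACCacugccaccau
miR-1246: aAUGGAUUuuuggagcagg
miR-1290: uGGAUUUUuggaucaggga
miR-1291: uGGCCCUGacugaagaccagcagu
miR-1248: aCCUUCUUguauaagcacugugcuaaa
miR-3651: cAUAGCCCggucgcugguacauga
miR-3648: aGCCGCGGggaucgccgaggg
miR-663a: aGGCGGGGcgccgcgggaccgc
miR-1260a and miR-1260b were the only pair among them with the same seed. Lengths ran from 18 bases in miR-1260a to 27 in miR-1248, beside a median of 22 over the 2248 entries with a sequence. G and C made up 90.9% of miR-663a and 81.0% of miR-3648, but only 37.0% of miR-1248. The median over the 9 was 58.3%, beside 52.2% over all entries with a sequence.

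In the RefSeq annotation of GRCh38.p14, the genes of 4 entries overlapped a snoRNA or rRNA gene. MIR1291 overlapped SNORA2C, inside KANSL2, and its mature sequence (chr12:48654494-48654517, minus strand) lay wholly within the snoRNA gene, 1 base from its edge. MIR3651 overlapped SNORA84, inside IARS1. Its mature sequence (chr9:92292461-92292484, minus strand) also lay wholly within, and ended at the snoRNA gene's edge. The letters ACA in that mature sequence stand 3 bases before its end, where the box of an H/ACA snoRNA would stand if the gene is read in the same direction. MIR1248 overlapped SNORA81, inside EIF4A2, the gene of a translation initiation factor. Its mature sequence (chr3:186786675-186786701, plus strand) began 1 base before the snoRNA gene, so that 26 of its 27 bases were inside. The strand of the snoRNA genes was not in the table used.

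The fourth was a copy of the miR-3648 gene. MIR3648-1 (chr21:8208473-8208652) lay inside RNA45SN2, the gene of a ribosomal precursor, 2485 bases after its start and 979 bases before the 18S gene RNA18SN2. This is the stretch that holds the external transcribed spacer. The other copy, MIR3648-2, whose mature sequence is at chr21:8987026-8987046 on the plus strand, overlapped no other gene. MIR1290 lay inside ALDH4A1, MIR1260A inside NGB, MIR1260B inside MAML2 and MIR663A inside the long non-coding RNA gene MIR663AHG. MIR1246 overlapped no gene. A match of these sequences to RNAs encoded elsewhere, such as U2 or a tRNA, was not examined, because only gene positions of those classes were used here.

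**Figure D1:**
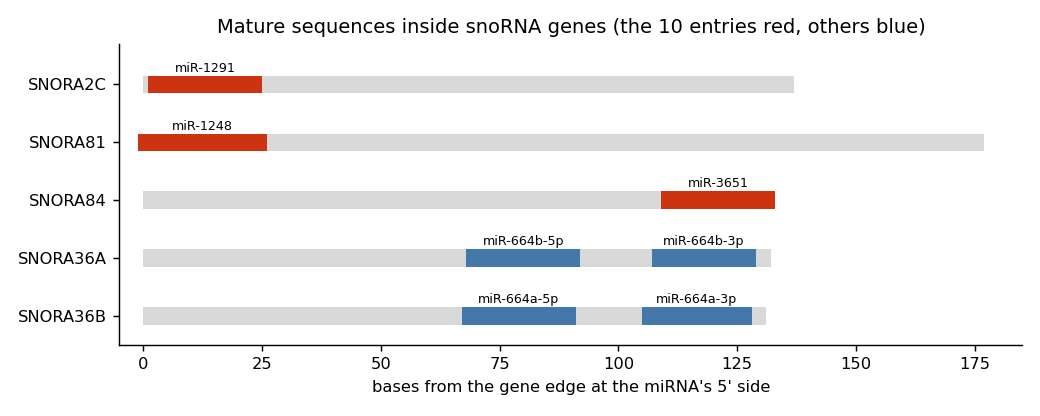
Position of mature miRNA sequences within snoRNA genes, in bases from the gene edge on the miRNA's 5′ side. Each grey bar is a snoRNA gene. miR-1291 starts 1 base inside SNORA2C, miR-1248 starts 1 base before SNORA81, and miR-3651 ends at the far edge of SNORA84. The arms of miR-664a and miR-664b are drawn in blue.

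The array measured each entry with 20 spots, here 10 spots on each of 2 probes. Brightness is the scanner signal after subtraction of the local background, and 15 of the 200 spots of the 10 entries (7.5%) were marked as outliers and left out, compared with 4.06% of all 50980 human spots. No spot was saturated. An entry's level is the mean over its probes of each probe's mean log2 brightness, with values under 1 raised to 1. Levels are stated against a reference percentile, the 75th over detected probes, which was a brightness of 249. Probes bind their targets with different strength, so a rank is a rank of brightness and not of RNA amount. Among 8 epithelial and intestinal marker miRNAs, 6 were detected, with miR-141-3p at a brightness of 2998, while miR-192-5p and miR-194-5p were not. Among 10 markers of blood, stroma, endothelium, liver, neurons and muscle, 6 were detected as well, a share near the 56.8% of all entries, and the neuronal miR-124-3p was at 74.8, beside 74.6 for the epithelial miR-200c-3p. The marker groups thus overlapped in brightness.

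The software's detection flag was set for 9 of the 10 entries, compared with 56.8% of all human entries. Only miR-1248 was not detected. The median position of the 10 was at percentile 81.1 of brightness over all entries. In the brightest 10% of the array, which came to 9.96% of entries, were 2 of the 10, miR-1260a at rank 88 and miR-1260b at rank 243. The next, miR-3648, was at rank 269, just outside this range, which ended at rank 254. Only these 3 of the 10 exceeded the reference percentile, compared with 289 of all 2549 entries. That percentile is taken over detected probes and not over all entries. None of the 10 was among the 10 brightest entries, and the brightest entry of the array, miR-7975, was 44.9-fold brighter than miR-1260a. With 1 array these counts are descriptions without a test.

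**Figure D2:**
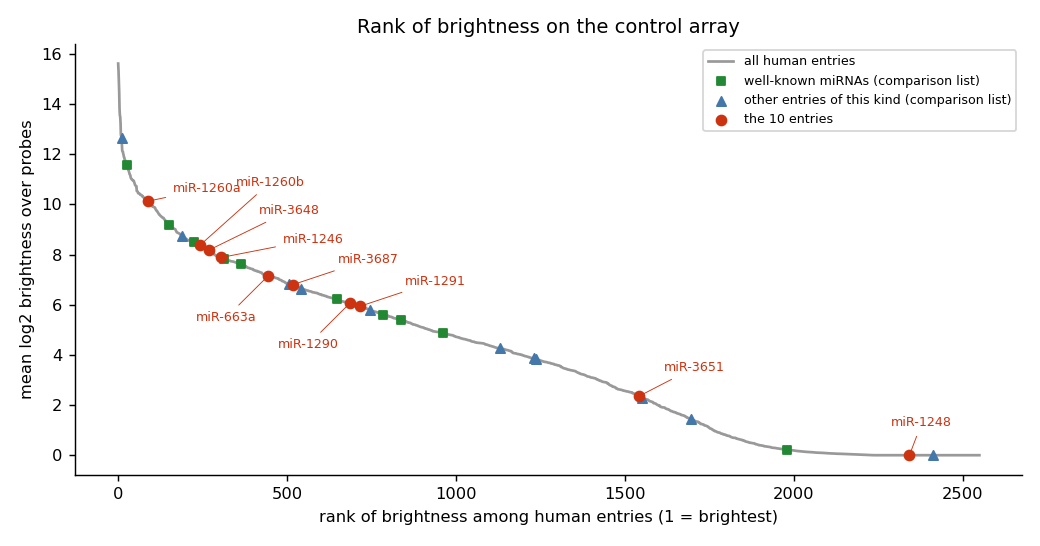
Mean log2 brightness over probes against rank among the 2549 human entries, with the 10 entries in red and 2 comparison lists in blue and green. miR-1260a at rank 88 is the brightest of the 10, 7 others lie between ranks 243 and 717, and miR-3651 and miR-1248 lie far to the right. Entries at the lowest value are tied and are drawn there in an arbitrary order.

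miR-1260a was the brightest of the 10 entries. miR-1260b came next in level, 1.15-fold above miR-3648, with overlapping probe means. The 9 spots of the dimmer hsa-miR-1260a probe ran from 768 to 816 with a median of 793, and the 10 spots of its brighter probe from 1228 to 1797 with a median of 1669. The means were 792 ± 18.9 (SD, n = 9 spots) and 1583 ± 209 (SD, n = 10 spots), so the probes did not overlap and were 1.98-fold apart. On the log2 scale, its level was 2.16 above the reference percentile.

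For hsa-miR-1260b, the dimmer probe had spots from 189 to 247, with a median of 228 and a mean of 223 ± 17.8 (SD, n = 10 spots). The brighter probe had spots from 467 to 523, with a median of 497 and a mean of 493 ± 18.9 (SD, n = 10 spots). These probes were 2.21-fold apart, and the entry's level was 0.41 above the reference percentile on the log2 scale. Its dimmer probe was below that percentile and its brighter probe above it.

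miR-1260a and miR-1260b differ by a single substitution, U9A counted from the 5′ end of miR-1260a, and by the extra U at the 3′ end of miR-1260b. The bases after the substitution are shared, as the capitals show.
miR-1260a: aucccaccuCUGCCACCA
miR-1260b: aucccaccaCUGCCACCAu
Despite this likeness, the level of miR-1260a was higher by 1.75 on the log2 scale (standard error 0.039 from the spots), a 3.37-fold difference in brightness. The dimmest miR-1260a probe was still 1.61-fold brighter than the brightest miR-1260b probe. miR-1260a ends in CACCA, which contains the CCA of a mature tRNA tail, and miR-1260b has 1 base more. How much of either signal came from RNA hybridized to the probes of the other was not tested.

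Of the entries assigned to the ribosomal spacer, miR-3648 was at rank 269 and miR-3687 at rank 517. Spots of hsa-miR-3648 ran from 236 to 249 on the dimmer probe, with a median of 245 and a mean of 243 ± 5.21 (SD, n = 10 spots). They ran from 317 to 360 on the brighter probe, with a median of 349 and a mean of 344 ± 14.1 (SD, n = 10 spots). The probes were 1.41-fold apart. Its rank was 264 when every entry was ranked by its dimmest probe and 274 when each was ranked by its brightest. Its level was 0.22 above the reference percentile on the log2 scale.

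hsa-miR-3687 had less agreement between its probes. Its dimmer probe had 9 spots from 60.1 to 72.7 (median 64.1, mean 64.9 ± 3.66 SD) and its brighter probe 9 spots from 184 to 198 (median 189, mean 190 ± 5.08 SD). The probes were 2.93-fold apart, each with little spread of its own. The entry as a whole was at rank 517, whereas ranking every entry by its dimmest probe gave rank 630 and by its brightest probe rank 424.

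hsa-miR-1246, whose described match to U2 was not examined here, had the widest gap between probes that were both bright. On its dimmer probe, 8 spots ran from 115 to 136, with a median of 128 and a mean of 128 ± 6.55 (SD). On its brighter probe, 10 spots ran from 320 to 549, with a median of 420 and a mean of 443 ± 82.0 (SD). The difference was 1.77 on the log2 scale (standard error 0.091 from the spots), or 3.41-fold. At the mean of both probes miR-1246 was at rank 306, just below the reference percentile, while ranking every entry by its brightest probe gave rank 222, within the brightest 10%, and by its dimmest probe rank 422.

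hsa-miR-1290 is the entry nearest to miR-1246 in sequence. Both hold the run of 12 bases shown in capitals, which starts at base 3 of miR-1246 and at base 1 of miR-1290. It ends where they first differ (G15U, counted from the 5′ end of miR-1246). In this alignment G15U was the only difference, and the bases after it were shared up to the 3′ end of miR-1246.
miR-1246: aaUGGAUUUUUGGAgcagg
miR-1290: UGGAUUUUUGGAucaggga
The 2-base shift gives them different seeds. Spots of miR-1290 ran from 45.1 to 55.6 on the dimmer probe (median 48.0, mean 49.0 ± 4.02 SD, n = 8 spots). On the brighter probe they ran from 83.2 to 96.6 (median 91.2, mean 90.6 ± 4.95 SD, n = 10 spots). The probes were 1.85-fold apart, and the level relative to the reference percentile was -1.90 on the log2 scale. The level of miR-1246 was higher than that of miR-1290 by 1.83 on the log2 scale (standard error 0.051), a 3.55-fold difference in brightness. The probe means of these entries did not overlap, the dimmer miR-1246 probe being 0.50 above the brighter miR-1290 probe on the log2 scale. Hybridization of either RNA to the probes of the other was not tested.

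hsa-miR-663a, the entry richest in G and C, had the best agreement between probes among the 9 detected entries. Its dimmer probe had 7 spots from 129 to 136 (median 132, mean 132 ± 2.57 SD) and its brighter probe 10 spots from 141 to 158 (median 150, mean 150 ± 5.18 SD). The probes were 1.14-fold apart, and only 32.0% of detected entries had a smaller gap. The level of miR-663a, at rank 444, was -0.82 relative to the reference percentile on the log2 scale.

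The 3 entries of the snoRNA genes were the dimmest 3 of the 10, although miR-1291 overlapped miR-1290 in probe means. hsa-miR-1291 was well above background on all 20 spots. Its dimmer probe ran from 40.4 to 61.2 (median 56.6, mean 53.4 ± 7.38 SD, n = 10 spots) and its brighter probe from 61.1 to 78.0 (median 71.5, mean 71.3 ± 6.01 SD, n = 10 spots). These probes touched at the edge of their ranges and were 1.34-fold apart, which put miR-1291 at rank 717.

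hsa-miR-3651 was near the background. On its brighter probe, 9 spots ran from 13.2 to 23.4 with a median of 17.5 and a mean of 17.9 ± 2.93 (SD), and 3 of them were well above background. On the other probe, 10 spots ran from -0.49 to 4.45 with a median of 0.76 and a mean of 1.23 ± 1.54 (SD), and 0 were well above background. The mean of the brighter probe was 1.43-fold the level that 99% of the 1000 negative control spots did not exceed, 12.5, and the other probe was below it. The gap between the probes could not be measured, because the dimmer probe was not above background and its spots under 1 were raised to 1. The entry's rank of 1541 includes that dimmer probe, and ranking every entry by its brightest probe gave rank 1276. The software still flagged it as detected, but in the deposited log2 values it stood at 2.33, next to the 2.32 of the undetected miR-1248.

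hsa-miR-1248 was the entry without a signal. Its spots were all below 0 after background subtraction, from -4.08 to -1.74 with a median of -2.90 on 1 probe (n = 9 spots) and from -3.89 to -2.998 with a median of -3.51 on the other (n = 7 spots). It was 1 of 312 entries whose probes were all at the lowest level. The means were -2.98 ± 0.72 and -3.43 ± 0.32 (SD), so its level is only bounded from above.

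**Figure D3:**
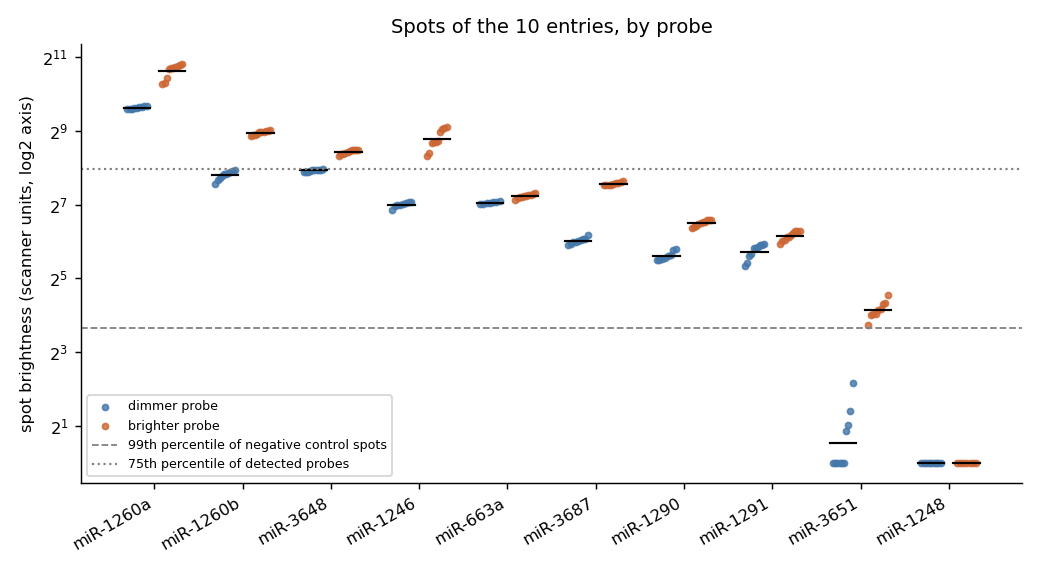
Brightness of each spot kept, on a log2 axis, for the 10 entries in order of level, with the dimmer probe in blue and the brighter in orange. Bars mark the mean on the log2 scale, and values below 1 are drawn at 1. The spots of miR-1248 all lie at 1, and only miR-1260a has both probes above the dotted reference percentile, at 249.

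In the order of levels, miR-1260a stood above all others with no overlap of probe means. From miR-1260b down through miR-3648, miR-1246, miR-663a, miR-3687, miR-1290 and miR-1291, each neighbouring pair overlapped in probe means, and neighbours differed by 1.08-fold to 1.67-fold in brightness. The order of neighbours within this stretch was therefore not set beyond the difference between probes. Some entries further apart also overlapped, such as miR-1260b and miR-1246, while others, such as miR-3648 and miR-663a, did not. The brighter miR-3651 probe, at 17.9, was below the dimmer miR-1291 probe, at 53.4, and both miR-1248 probes were below 0.

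The probes of an entry differed more than 2-fold in 4 of the 9 detected entries, miR-1246, miR-1260b, miR-3687 and miR-3651, compared with 24.7% of the 1447 detected entries with at least 2 probes. The median gap over those was 0.36 on the log2 scale, and 8 of the 9 were above it. The place of miR-3651 among the 4 rests on a probe at background and on the value of 1 set for its lowest spots, and its gap was 0.36 on the log2 scale after normexp background correction. After that correction only miR-1246 and miR-3687 were over 2-fold apart, with miR-1260b at 0.98 on the log2 scale. The correction as used adds 50 to every spot, which by itself narrows the gaps, most of all for dim probes. The share of all entries over 2-fold apart after it was not computed. Without the correction, miR-1246 had a larger gap than 86.9% of detected entries, miR-3687 than 85.3% and miR-1260b than 79.1%. miR-1260a fell just short of 2-fold. In the 8 entries well above background the SD between spots of a probe was 0.028 to 0.27 on the log2 scale, below the gap between probes in each of them.

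**Figure D4:**
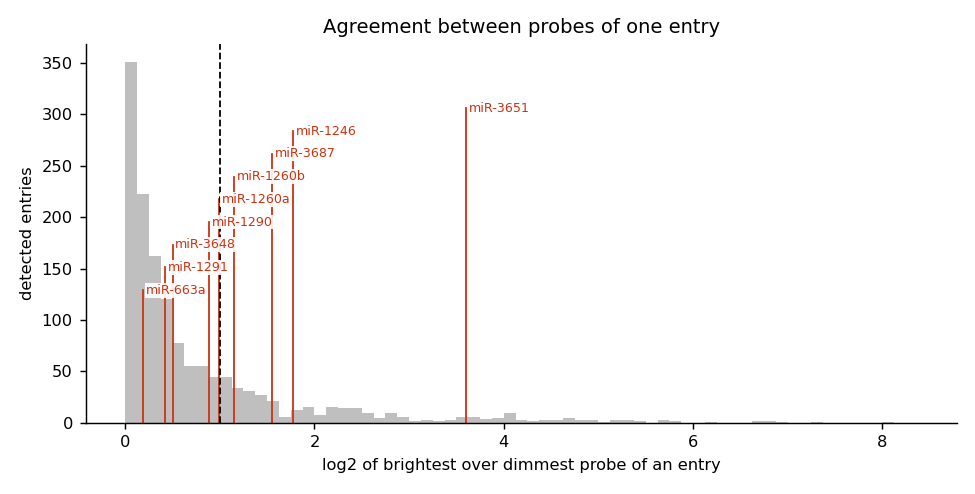
Histogram of the log2 gap between probes, brightest over dimmest, of each detected entry with at least 2 probes (1447 entries), with the 9 detected entries of interest in red and 2-fold as a dashed line. miR-663a lies near the left edge at 0.18, and miR-1260b, miR-3687, miR-1246 and miR-3651 lie right of the line. The place of miR-3651 depends on the lowest value allowed for its probe at background.

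A comparison list of other entries that have been linked to snoRNA, rRNA or tRNA had 11 members on the array. Of these, 8 were detected and 2 were in the brightest 10%, miR-7641 at rank 11 and miR-3656 at rank 191, and the list's median percentile was 55.6. A list of 10 well-known miRNAs of epithelial cells had 9 detected and 3 in the brightest 10%, with a median percentile of 80.1, compared with 81.1 for the 10 entries of interest. miR-1246 and the widely studied miR-21-5p were at ranks 306 and 314. The 10 entries and the well-known miRNAs thus overlapped in brightness on this array.

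Considering position alone, 8 entries of the array came from genes that overlapped a snoRNA or tRNA gene in the annotation. They were miR-1291, miR-1248, miR-3651, both arms of miR-664a and of miR-664b, and miR-4521. miR-3648 was not counted with them, because no mature position was available for MIR3648-1, its gene copy inside an rRNA gene. Of these 8, 7 were detected, compared with 56.8% of all entries, and 0 were in the brightest 10%, compared with 9.96%, a difference that 8 entries are too few to show. Their median percentile was 52.5. The 3′ arms of miR-664a and miR-664b ended 3 bases before the edge of SNORA36B and SNORA36A and had brightness values of 14.5 and 14.3. The mature miR-4521 began directly after the end of the tRNA gene TRS-GCT4-3, with 0 bases inside it, and had a brightness of 16.2. In this group miR-664b-5p, at 113, was brighter than miR-1291, at 61.3.

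Brightness rose weakly with the share of G and C over the 1279 detected entries with a sequence (Pearson's r = 0.20, Spearman's rho = 0.19). This is a description across entries of 1 array, which share its scan and labelling and are not independent replicates. The median share was 56.5% in detected entries and 61.9% in the 216 of the brightest 10% that had a sequence. Among the 10, miR-1246 and miR-1290 had the same share, 42.1%, but were 3.55-fold apart, and miR-663a with 90.9% overlapped miR-1246 in probe means. The part of base composition in the brightness of these entries was not tested.

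**Figure D5:**
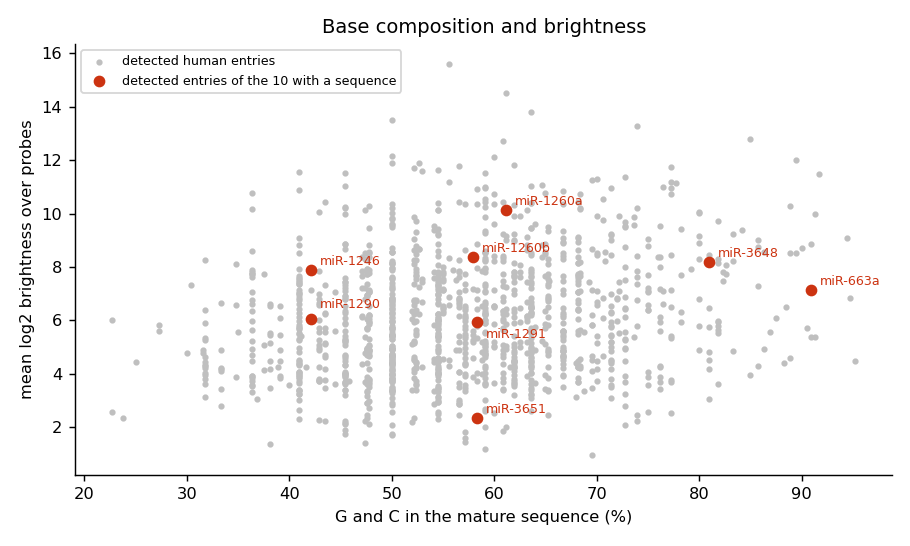
Mean log2 brightness against the share of G and C in the mature sequence for the 1279 detected entries with a sequence, with the 8 detected entries of interest that have one in red. The red points span 42.1% to 90.9% without following a line, and miR-1246 and miR-1290 lie above each other at 42.1%.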

How the data were processed

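Total RNA of 1 sample was labelled with Cy3 and hybridized to a human miRNA array. The labels describe ligation of the dye to RNA, the methods labelled double-stranded cDNA. The deposited scanner output holds linear spot intensity, background-subtracted by Feature Extraction 11.0.1.1, with marks for outliers and detection. A second table that the authors deposited holds log2 values of this array, quantile normalized in GeneSpring per the methods, which were used as an alternative.

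Control spots and outlier spots were left out. The reference percentile was taken over 2567 probes of detected entries with at least 0.5 of their spots well above background. Sequences, gene positions and GRCh38.p14 coordinates came from RefSeq. The planned search for shared runs with snoRNA, rRNA, tRNA and snRNA sequences was replaced by overlap of gene positions. The naming rule covered the 10 entries, their neighbours in rank, the 10 brightest entries and members of the 4 lists, of which the text names some. miR-4521, miR-4252 and miR-876-5p fell outside it and were named after their values were seen. Entries, lists and rules were chosen with earlier results of these data known. Python 3.11.15, numpy 2.4.6, pandas 2.3.3, R 4.3.3 and limma 3.58.1 were used. The summary was tested on simulated spots that were all well above the lowest level, so entries near background were not covered. The number of arrays, 1, limits the precision and allowed no test.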

Additional observations from a re-analysis of the deposited data

How the results depend on the processing

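The count of detected entries was 8 when a probe with 0.5 of its spots, or with every spot, well above background was required, and 9 when 0.5 of a probe's spots had to be positive and significant. The share of all human entries passing these rules was not computed, so these counts cannot be set against the array. The count in the brightest 10% was 1 with the dimmest probe (miR-1260a), 3 with the brightest probe and 1 when ranked among detected entries only, a choice made after seeing the data. It was 2 with total gene signal, normexp, outlier spots kept and the deposited log2 values. The median percentile was 82.1 with the brightest probe, 79.4 with the dimmest probe and 69.3 among detected entries, and 81.2 to 81.4 otherwise. Entries with probes over 2-fold apart numbered 2 after normexp with its added 50 (miR-1246 and miR-3687) and 5 with outlier spots included (miR-1260a was added). They numbered 3 where all spots of a probe had to be well above background. The count was also 3 where, an added choice, probes had to exceed 99% of negative control spots. For none of these settings was the share of all entries over 2-fold apart computed, so these counts cannot be set against the array. miR-1260a minus miR-1260b was 1.58 after normexp, 1.98 in the deposited values and 1.67 to 1.83 otherwise. The number of entries overlapping a snoRNA or rRNA gene fell from 4 to 2 when the mature sequence had to lie wholly inside, also an added choice. miR-1248 dropped out with 26 of its 27 bases inside. miR-3648 dropped out only because no mature position was available for MIR3648-1, whose whole gene lay inside RNA45SN2. Relative to the reference percentile, the level of miR-1246 turned positive with the brightest probe (0.81), total gene signal (0.47), the deposited values (0.55) and a percentile over all probes (1.71). With that percentile miR-3687 was at 0.63 and miR-663a at 0.97. With the dimmest probe miR-1260b was at -0.16 and miR-3648 at -0.035. The other 60 level values kept their sign. Of all 68, only 12 lay closer to the main value than the entry's mean SD between spots. For miR-1248 that SD was 0 at the lowest level, so its values could not be judged this way. Beyond the construction of each alternative, the cause was not tested. Shared runs of 14 bases and whole-sequence matches were not run. No paired analysis was possible because 1 sample was analysed. Brightness near the negative controls, as for miR-3651, and below them, as for miR-1248, limits what these entries can show.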

Other observations

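The CACCA end of miR-1260a, looked at after its values were seen, was searched at the 3′ end of all 2248 mature sequences, and 5 (0.222%) had it. They are shown because they include 2 of the 4 brightest entries of the array, with the end in capitals.
miR-7975: auccuagucacggCACCA
miR-7977: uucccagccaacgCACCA
miR-1260a: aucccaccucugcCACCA
miR-4252: ggccacugagucagCACCA
miR-876-5p: uggauuucuuugugaauCACCA
miR-7975 was at rank 1 with a brightness of 50099 and miR-7977 at rank 4 with 23132. miR-1260a was at rank 88 with 1115 and miR-4252 at rank 656 with 72.0, while miR-876-5p was not detected. The shared end thus went with brightness values from background to the top of the array. These entries were picked after their values were seen, so no test was made.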
